A study of Mus musculus with 42 samples.

Results

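The expression of 10 genes of the venous pole and proepicardium was measured on either side of the heart field in mouse embryos. The genes are *Osr1*, *Tbx18*, *Shox2*, *Wt1*, *Tcf21*, *Hcn4*, *Tbx3*, *Nr2f1*, *Nr2f2* and *Upk3b*, taken by name from the 56953 genes of the count table after its Ensembl identifiers were matched to GENCODE symbols. All 10 were found, and all 10 had enough reads to be tested in every comparison. The embryos were at E8.5i, when the heart tube loops. Of 21 embryos, 5 were wild type (Ccdc40+/+) with rightward looping, 11 were Ccdc40lnks/lnks with rightward looping (rightward mutants) and 5 were Ccdc40lnks/lnks with inverted looping (inverted mutants). The rightward mutants pool embryos that the study classed, from expression in these same libraries, as situs solitus (normal laterality) or heterotaxy (ambiguous laterality), so that each value of this group is over both classes. CCDC40 is a component of motile cilia, and *lnks* is a germline nonsense allele, carried by every cell of the mutants. The labels name no strain and no treatment. Each library is the left or the right side of the heart field of 1 embryo, split down the middle after the heart tube and most of the other tissue had been dissected off.

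The venous pole is where blood enters the heart tube. It grows from the posterior part of the second heart field, a population of progenitors in the dorsal pericardial wall, which adds the sinus venosus and atria and gives rise to the pacemaker cells of the sinoatrial node. The proepicardium is a cluster of mesothelial cells next to it, from which the epicardium later spreads over the heart. In the normal heart the node forms on the right. OSR1 marks progenitors of the dorsal mesocardial protrusion in the posterior second heart field. SHOX2 and TBX3 are transcription factors of the pacemaker program, TBX18 marks the sinus horns and the proepicardium, and HCN4 is a pacemaker channel. NR2F1 and NR2F2 are nuclear receptors of atrial identity, while WT1, TCF21 and the membrane protein UPK3B mark the proepicardium and mesothelium.

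The promoters of 3 genes are shown because these were the genes whose right and left levels differed past the threshold in inverted mutants. Each line is the 200 bases before the start of the canonical transcript in GENCODE, read 5′ to 3′ on the strand of the gene from GRCm39, and none of these bases lies in an annotated exon. Capitals mark a CCAAT box in *Osr1* (bases 94 to 90 before the start) and a TATA box in *Shox2* (bases 23 to 18). The windows are chr12:9624238-9624437 on the plus strand for *Osr1*, chr3:66889285-66889484 on the minus strand for *Shox2* and chr9:58729932-58730131 on the plus strand for *Hcn4*.
Osr1: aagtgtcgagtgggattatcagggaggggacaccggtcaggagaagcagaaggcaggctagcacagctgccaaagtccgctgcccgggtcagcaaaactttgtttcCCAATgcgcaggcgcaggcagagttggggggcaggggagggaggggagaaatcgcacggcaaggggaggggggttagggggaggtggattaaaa
Shox2: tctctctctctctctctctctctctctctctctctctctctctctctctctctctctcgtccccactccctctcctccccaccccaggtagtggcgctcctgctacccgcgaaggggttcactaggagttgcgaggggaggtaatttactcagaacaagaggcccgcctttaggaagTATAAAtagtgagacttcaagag
Hcn4: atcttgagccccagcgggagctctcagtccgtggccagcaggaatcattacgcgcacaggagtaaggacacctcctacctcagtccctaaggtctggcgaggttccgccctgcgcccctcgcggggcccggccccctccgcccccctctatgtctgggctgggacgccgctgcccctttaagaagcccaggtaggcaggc

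These windows were searched on both strands for 5 short motifs. The letters CCAAT occurred in 32.3% of the 21770 windows of protein-coding genes and TATAAA in 9.57%. The T-box motif GGTGTGA was in 2.58% of all windows, the GATA motif AGATAA in 7.25% and the nuclear receptor motif AGGTCA in 10.6%. None of these last 3 motifs was found in the 3 printed windows, which says only that the letters are absent there. Among the other members, *Wt1* held AGATAA 130 to 125 bases before its start and *Upk3b* held AGGTCA 155 to 150 bases before it. *Tbx18* and *Nr2f1* each held a CCAAT box, at 62 to 58 and 167 to 163 bases. *Shox2* has a run of CT repeats at the far end of its window, and GC content of the 3 windows was 60.5% in *Osr1*, 54.0% in *Shox2* and 67.0% in *Hcn4*.

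On GRCm39 the members lie, in the order of the roles above, at chr12:9538061-9631513 (*Osr1*), chr3:66879058-66889284 (*Shox2*), chr5:119806298-119822797 (*Tbx3*), chr9:87584851-87613338 (*Tbx18*), chr9:58730132-58770458 (*Hcn4*), chr13:78337092-78348578 (*Nr2f1*), chr7:70001692-70016519 (*Nr2f2*), chr2:104956625-105003961 (*Wt1*), chr10:22692803-22696073 (*Tcf21*) and chr5:136067350-136075342 (*Upk3b*). All are protein-coding, and the values count reads over their annotated exons.

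The libraries held between 36073684 and 62970327 counts (median 43458644). Levels are given as CPM, that is, counts scaled by the effective library size. *Ccdc40*, the mutated gene, was lower in rightward mutants than in wild type, by a log2 fold change of -0.68 (SE 0.092, adjusted p = 0.00715) on the left and of -0.82 (SE 0.12, adjusted p = 0.0227) on the right (edgeR's quasi-likelihood test). None of the 15 genes listed for the posterior second heart field had a median count of 0, and their summed level was 804 to 1923 CPM. The heart tube had been cut away, yet the 12 listed heart tube muscle genes summed to between 336 and 5724 CPM. In the members 3 embryos stood apart. The rightward mutant 2_2 had the lowest mean of both sides for *Osr1*, *Tbx18*, *Shox2*, *Wt1*, *Hcn4* and *Upk3b*, and also for *Tbx5* and *Gata4*, transcription factors of the cardiac progenitors (mean of both sides 3.08 CPM against 47.8 to 99.2 CPM for *Tbx5* in the other 20 embryos). *Wnt2* (15.5 CPM against 142 to 272), *Foxf1* (12.9 against 29.5 to 49.4) and *Aldh1a2* (31.4 against 40.5 to 113) were also lowest in 2_2, whereas *Isl1* was the highest of all embryos (121 CPM against 65.2 to 115) and *Nkx2-5* was within the range of the others (70.6 CPM against 59.7 to 129). The rightward mutant 15_5 had *Wt1* at 54.4 CPM on the left, against 68.4 CPM on the right, while the means of the other 20 embryos were 2.09 to 15.9 CPM. In the wild type 10_1 the right side was the lowest of the wild types for *Shox2*, *Hcn4* and *Tbx3*, and *Gata4* was at 18.7 CPM on the right and 189 CPM on the left. It was not low in all genes, since *Aldh1a2*, which makes retinoic acid, was at 154 CPM on the right and 72.3 CPM on the left. Results are given with these embryos. Log2 fold changes of right over left that changed sign or moved by over 1.5 times without 2_2 or 10_1 have that value beside them.

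Levels between genes were compared per kilobase of annotated exon, over the mean of both sides of each embryo. *Tbx3*, at 14.7 ± 2.75 CPM per kilobase (SD, n = 21), and *Nr2f2*, at 14.0 ± 2.07, were the most abundant members. *Tcf21* (6.33 ± 1.69), *Osr1* (6.205 ± 1.52) and *Upk3b* (5.02 ± 1.94) followed. Then came *Nr2f1* (3.14 ± 0.490), *Hcn4* (2.83 ± 0.779), *Wt1* (2.03 ± 1.80) and *Shox2* (1.81 ± 0.653), with *Tbx18* lowest at 1.08 ± 0.290. The only neighbours in this order whose SD ranges did not overlap were *Nr2f2* and *Tcf21*, where *Nr2f2* was higher in 21 of 21 embryos. *Tcf21* was above *Osr1* in 9 of 21 embryos, and *Wt1* above *Shox2* also in 9 of 21, so that neither order is settled, and the mean of *Wt1* includes 15_5 at 9.53. *Nr2f2* varied least over embryos, with a coefficient of variation of 14.8%, and *Wt1* most, at 88.9%, which rests on 15_5. Exon length here counts every annotated exon, so that a gene with many rare exons is understated per kilobase.

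**Figure D1:**
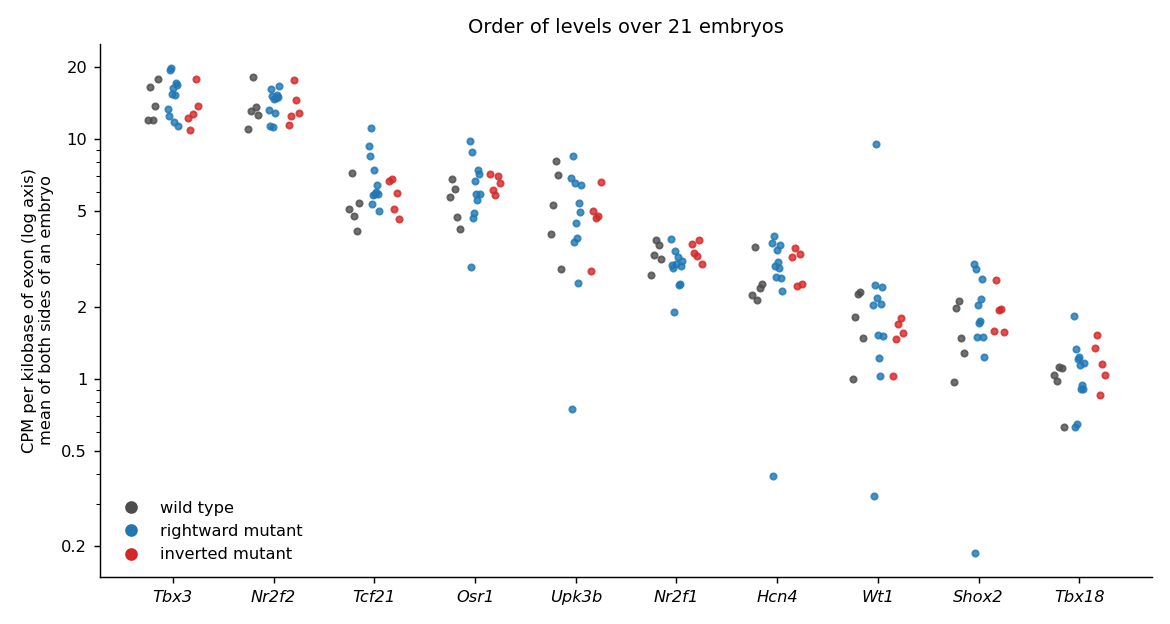
Level of each gene in CPM per kilobase of exon (log axis), 1 point per embryo as the mean of both sides, coloured by group and ordered by the mean over 21 embryos. *Tbx3* and *Nr2f2* sit highest, overlapped only by the highest *Tcf21* point (11.2, embryo 3_7), and the rightward mutant 2_2 is the low point of *Upk3b* (0.743), *Hcn4* (0.390), *Wt1* (0.324) and *Shox2* (0.187).

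Right was then compared with left within each embryo, which asks whether the members are asymmetric in a group. In inverted mutants 3 of the 10 members were called, all higher on the right, namely *Osr1*, *Shox2* and *Hcn4*. The background is 1.81% of the 25608 genes tested, or 1.47% for genes higher on the right. The members had been chosen with earlier results of these data known. No member was called in wild type, where 0% of 25765 genes were called, nor in rightward mutants, where the share was 0.0219% of 27358 genes (all lower on the right). At an unadjusted p under 0.05 edgeR gave 0 members in wild type (2.75% of all genes), 2 in rightward mutants (3.37%) and 6 in inverted mutants (14%), and DESeq2 called 0 members in wild type (0.0815% of all genes), 0 in rightward mutants (0.113%) and 4 in inverted mutants (6.88%). Right was higher in every inverted mutant for 4 members, the 3 called and *Tbx3*, as for 9.62% of the 15245 genes with a mean of 1 CPM or more. The calls of *Osr1*, *Shox2* and *Hcn4* were lost in a fit of all 42 libraries (edgeR, adjusted p = 0.204, 0.103 and 0.161) and with the 3 males alone (adjusted p = 0.333, 0.0582 and 0.145), with the same direction. Over all genes 464 were called in inverted mutants, against 133 in that fit and 51 with males alone. The median log2 fold change of the 10 members was 0.31 in inverted mutants, 0.071 in rightward mutants and -0.14 in wild type, against -0.016, 0.0019 and 0.0040 over all genes. The median in wild type turned to 0.012 without 10_1, and it was between -0.16 and -0.23 with each other wild type left out. That in rightward mutants ran from 0.0066 (without 19_4) to 0.10 (without 17_1) with 1 embryo left out. The sign of the log2 fold change turned with some single embryo left out for 7 of the 10 members in wild type, 2 in rightward mutants (*Hcn4* and *Tbx3*) and 2 in inverted mutants (*Nr2f2* and *Upk3b*), none of them called. In whole tissue, fewer cells of a type and less RNA per cell cannot be told apart. The labels do not give litters, so that the p-values measure the spread between these embryos, some of which may be littermates.

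**Figure D2:**
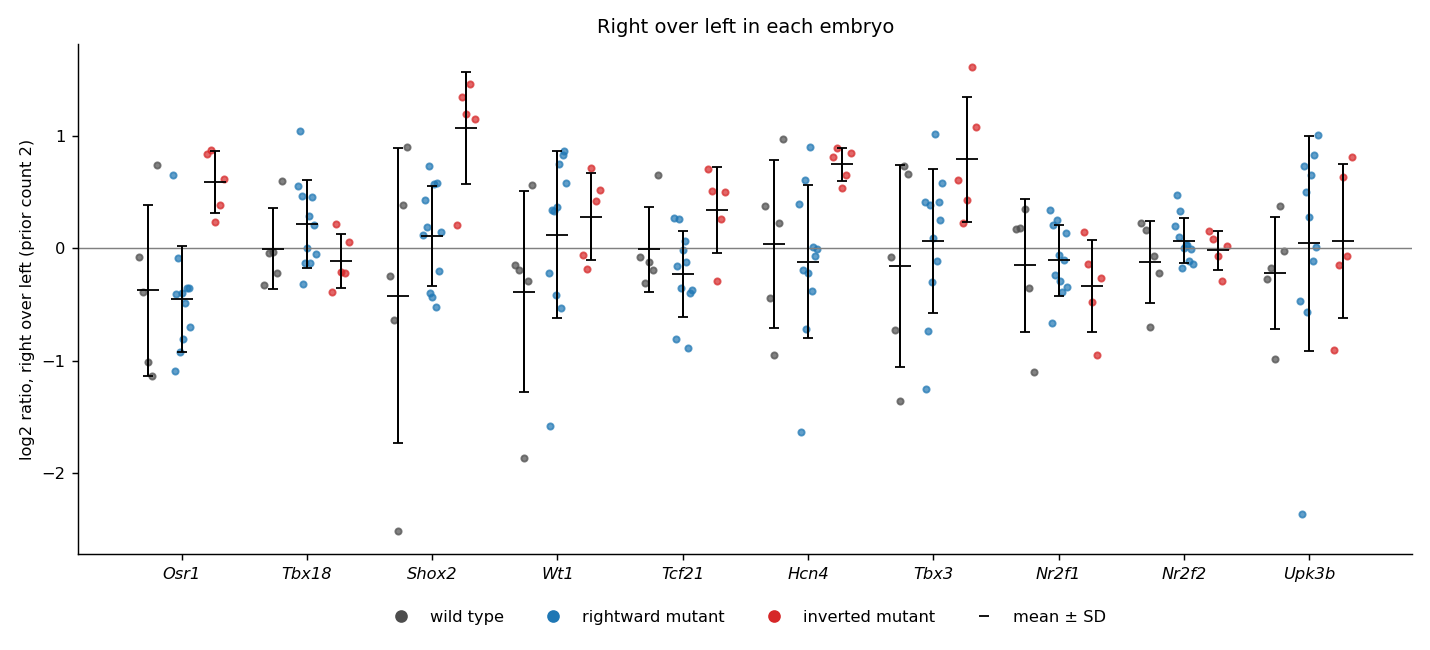
Log2 ratio of right over left in each embryo (prior count 2), 1 point per embryo and coloured by group, with mean ± SD as black bars. In inverted mutants *Osr1*, *Shox2*, *Hcn4* and *Tbx3* lie above 0 in 5 of 5 embryos, and in rightward mutants *Osr1* lies below 0 in 10 of 11.

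*Osr1* is a marker of posterior second heart field progenitors, measured here in whole dissected tissue. In inverted mutants (embryos 2_7, 4_6, 10_3, 18_2 and 32_2) its left level was 41.9, 35.4, 43.8, 49.7 and 42.4 CPM, and the right level was 74.8, 64.7, 51.4, 64.9 and 64.9 CPM. Right was higher in every inverted mutant, and the ranges of the sides did not overlap. In wild type (7_1, 8_1, 10_1, 17_7 and 22_4) the left level was 48.1, 63.6, 68.0, 52.9 and 25.9 CPM, and the right level was 45.7, 48.4, 33.7, 24.1 and 43.1 CPM. Left was higher in 4 of 5 wild types, with 22_4 the other way, and the sides overlapped. In rightward mutants the left level had a lowest, median and highest value of 32.5, 61.6 and 82.1 CPM, and the right level of 15.2, 38.1 and 97.6 CPM. Left was higher in 10 of 11 rightward mutants, and 1_6 was the exception, with 62.3 CPM on the left, against 97.6 CPM on the right. The log2 fold change of right over left was 0.59 in inverted mutants (SE 0.099, adjusted p = 0.0244, edgeR), -0.45 in rightward mutants (SE 0.12, adjusted p = 1.00) and -0.38 in wild type (SE 0.25, adjusted p = 1.00), where it was -0.21 without 10_1, -0.19 without 17_7 and -0.65 without 22_4. The exact sign-flip test over embryos gave p = 0.0127 in rightward mutants (two-sided), p = 0.063 in inverted mutants, which is the smallest that 5 embryos allow, and p = 0.3125 in wild type. These p-values are not corrected for the number of genes, and the sign-flip test was run on the members only. Over all genes with a mean of 1 CPM or more, 0.748% had left higher in at least 10 of 11 rightward mutants. The call in inverted mutants was lost without 2_7, 4_6, 18_2 or 32_2 (adjusted p = 0.0594 to 0.131), where 4 embryos remained, while the log2 fold change stayed at 0.52 to 0.68 over all 5 omissions. *Osr1* shares no annotated exon with another gene.

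*Shox2* encodes a transcription factor of the sinoatrial node program. Inverted mutants, in the order given for *Osr1*, had 5.13, 5.08, 4.08, 3.62 and 3.39 CPM on the left, against 5.93, 13.0, 9.41, 10.0 and 7.55 CPM on the right. Right was higher in 5 of 5, by little in 2_7 and by more in the others, and the sides did not overlap. Wild types had 3.67, 8.38, 12.5, 4.47 and 3.10 CPM on the left, against 3.08, 5.38, 2.15, 5.86 and 5.84 CPM on the right. No side was favoured there, and 10_1 had the highest left and the lowest right level. In rightward mutants the lowest, median and highest level was 0.551, 6.85 and 10.1 CPM on the left, against 0.758, 6.17 and 11.001 CPM on the right, the lowest being 2_2 on both sides. The log2 fold change was 1.08 in inverted mutants (SE 0.19, adjusted p = 0.0270), 0.10 in rightward mutants (SE 0.13) and -0.38 in wild type (SE 0.45), where it ran from -0.72 (without 22_4) to 0.11 (without 10_1). In rightward mutants it ran from 0.033 to 0.16 with 1 embryo left out. Only the value in inverted mutants was called, and the call was lost without 4_6, 10_3, 18_2 or 32_2 (adjusted p = 0.0610 to 0.142). *Shox2* shares 467 of its 3493 exon bases with *Rsrc1*, so that its reads cannot be fully separated where strand was not used in counting.

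*Hcn4* encodes the channel that carries the pacemaker current. Inverted mutants had 15.6, 16.5, 13.3, 17.2 and 11.9 CPM on the left, against 27.4, 30.5, 19.3, 26.96 and 21.4 CPM on the right. Every right level lay above every left level. Wild types had 13.0, 27.3, 18.7, 14.7 and 11.2 CPM on the left, against 16.9, 20.1, 9.68, 17.2 and 22.1 CPM on the right, and the sides overlapped. Rightward mutants had 3.97, 21.3 and 28.2 CPM (lowest, median, highest) on the left and 1.25, 21.3 and 27.9 CPM on the right. The medians of both sides were equal to this precision, and the lowest values came from 2_2. The log2 fold change was 0.75 in inverted mutants (SE 0.083, adjusted p = 0.00548), -0.079 in rightward mutants (SE 0.17) and 0.045 in wild type (SE 0.26). With 1 embryo left out it ran from -0.18 to 0.026 (without 2_2) in rightward mutants, and in wild type from -0.19 (without 22_4) to 0.29 (without 10_1). It was the member with the smallest error in inverted mutants relative to its size, and the call held without each embryo in turn (adjusted p = 0.00742 to 0.0349). *Hcn4* shares no annotated exon with another gene.

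*Tbx3* encodes a repressor that keeps the conduction system from turning into working muscle. Inverted mutants had 79.7, 82.9, 89.7, 72.7 and 72.6 CPM on the left, against 122, 97.0, 121, 222 and 153 CPM on the right. The left levels were close together, and each right level was above all of them. Wild types had 102, 169, 143, 84.9 and 114 CPM on the left, against 96.6, 102, 55.6, 141 and 179 CPM on the right. In rightward mutants the range was 64.6 to 199 CPM on the left, against 60.8 to 185 CPM on the right, with medians of 130.1 and 126 CPM, so that the sides overlapped in both groups. The log2 fold change in inverted mutants was 0.79 (SE 0.18) and did not pass the threshold (adjusted p = 0.0712), while DESeq2 gave 0.79 with an adjusted p = 0.0181. Without the embryo block it was 0.86 (adjusted p = 0.0388). In rightward mutants it was 0.073, and it ran from -0.029 to 0.19 (without 2_2) with 1 embryo left out. In wild type it was -0.14 and turned to 0.16 without 10_1, with an adjusted p of 1.00 in edgeR both times. With another wild type left out it fell as low as -0.38. *Tbx3* shares 1506 of 8233 exon bases with *Tbx3os1* and *Tbx3os2*.

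*Tbx18* marks the sinus horns and the proepicardium, and its level did not separate the sides in any group. Inverted mutants had 7.24, 6.69, 4.37, 5.90 and 4.79 CPM on the left, against 5.52, 7.76, 3.76, 5.06 and 4.98 CPM on the right. Wild types had 5.48, 4.68, 5.35, 5.66 and 2.36 CPM on the left, against 4.36, 4.55, 5.23, 4.84 and 3.61 CPM on the right. Left was higher in 4 of 5 wild types and 3 of 5 inverted mutants, with small differences. In rightward mutants the level ran from 1.94 to 7.00 CPM on the left and from 2.73 to 10.3 CPM on the right, and right was higher in 6 of 11. The log2 fold change was 0.22 there (SE 0.11), -0.11 in inverted mutants (SE 0.13) and -0.0073 in wild type (SE 0.17). With 1 embryo left out the first ran from 0.13 (without 2_2) to 0.27 and the second from -0.19 to -0.023. The last ran from -0.16 to 0.072, and was 0.00089 without 10_1. *Tbx18* shares 995 of 4745 exon bases with *D030062O11Rik*.

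**Figure D3:**
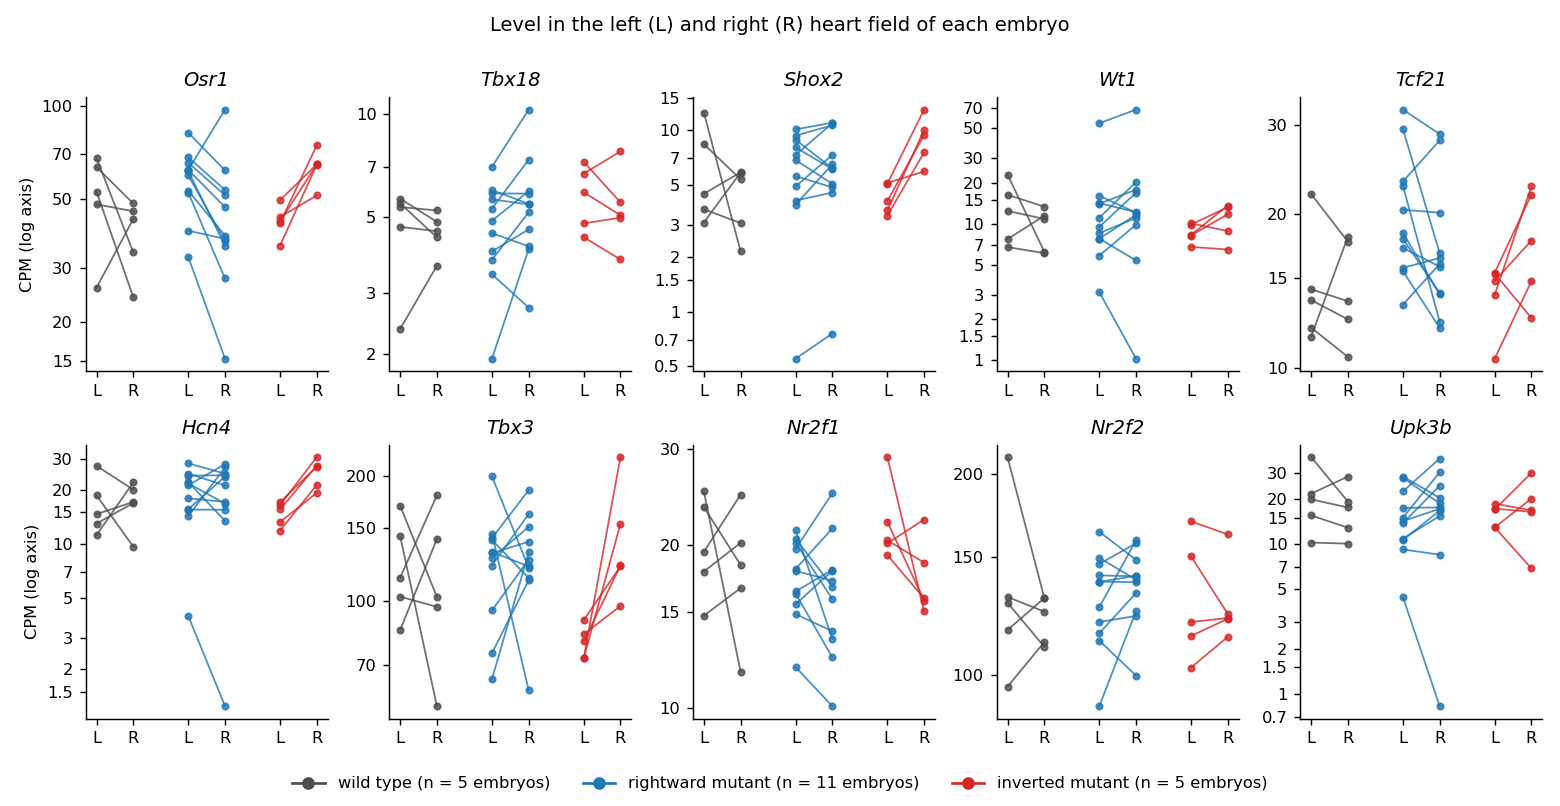
CPM of each gene (log axis, own range per panel) in the left (L) and right (R) heart field, with a line joining both sides of an embryo. For *Osr1*, *Shox2*, *Hcn4* and *Tbx3* the right end of the line is the higher one in 5 of 5 inverted mutants, and for *Osr1* the left end is the higher one in 10 of 11 rightward mutants.

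The nuclear receptors of atrial identity had the lowest coefficients of variation of level over embryos (15.6% for *Nr2f1*), while in the ratio of right over left *Nr2f2* alone had the smallest errors. *Nr2f2* had 103, 114, 169.8, 151 and 119.95 CPM on the left, against 114, 121, 162, 123 and 122 CPM on the right of inverted mutants. In rightward mutants the median was 138 CPM on the left, against 139 CPM on the right, and in wild type 128 and 124 CPM. Its log2 fold change was -0.018 in inverted mutants (SE 0.065), 0.068 in rightward mutants (SE 0.052) and -0.12 in wild type (SE 0.13), the smallest SE of the 10 genes in each group. The value in rightward mutants ran from 0.021 (without 2_2) to 0.093 with 1 embryo left out. The wild-type value turned to 0.030 without 10_1 and fell as low as -0.21 with another wild type left out. *Nr2f1* had 20.1, 20.4, 22.0, 29.0 and 19.1 CPM on the left, against 22.2, 18.5, 15.8, 15.1 and 15.9 CPM on the right of inverted mutants. It was lower on the right in 4 of 5, the direction opposite to that of *Hcn4*, with a log2 fold change of -0.33 (SE 0.14, p = 0.0465, adjusted p = 0.345) that ran from -0.44 (without 2_7) to -0.18 (without 18_2) with 1 embryo left out. In rightward mutants and wild type its log2 fold change was -0.10 (SE 0.088) and -0.14 (SE 0.20), or -0.055 without 2_2 and -0.27 without 10_1, and in wild type it turned to 0.085 without 22_4. *Nr2f1* shares 1013 of 5795 exon bases with *A830082K12Rik*, and *Nr2f2* 1717 of 9403 with *B130024G19Rik* and *Gm72772*.

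Of the proepicardial markers none was called. *Tcf21*, a transcription factor of the epicardium and of pharyngeal mesoderm, had 13.9, 15.4, 15.3, 14.8 and 10.4 CPM on the left, against 22.7, 21.9, 12.5, 17.8 and 14.8 CPM on the right of inverted mutants. Right was higher in 4 of 5, with 10_3 the other way, and the log2 fold change was 0.34 (SE 0.14, adjusted p = 0.319). In rightward mutants the lowest, median and highest level was 13.3, 18.4 and 32.1 CPM on the left, against 11.97, 16.0 and 28.7 CPM on the right, and left was higher in 8 of 11 (log2 fold change -0.23, SE 0.10, adjusted p = 1.00). In wild type it was -0.0091 (SE 0.15), and it ran from -0.18 to 0.065 with 1 embryo left out (0.023 without 10_1). *Tcf21* thus had the same signs as *Osr1* in both mutant groups, at a smaller size. *Wt1*, which encodes a zinc finger protein of the mesothelium, had 6.75, 10.0, 8.27, 9.85 and 8.18 CPM on the left, against 6.46, 8.82, 13.6, 13.2 and 11.7 CPM on the right of inverted mutants. Right was higher in 3 of 5, and the log2 fold change was 0.28 (SE 0.15, adjusted p = 0.448), which ran from 0.18 to 0.40 with 1 embryo left out. *Upk3b*, a mesothelial membrane protein, had 12.9, 18.7, 13.0, 17.3 and 17.1 CPM on the left, against 6.88, 16.8, 20.1, 16.4 and 30.0 CPM on the right. Right was higher in 2 of 5, and the log2 fold change was 0.070 (SE 0.23), which ran from -0.12 (without 32_2) to 0.32 (without 2_7).

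*Wt1* and *Upk3b* had wide spreads in the other groups too. In rightward mutants *Wt1* ranged from 3.15 to 54.4 CPM on the left and from 1.02 to 68.4 CPM on the right, and *Upk3b* from 4.43 to 28.3 CPM and from 0.824 to 37.4 CPM. The low ends are 2_2 and the high ends of *Wt1* are 15_5. Their log2 fold changes in rightward mutants were 0.17 (SE 0.18) and 0.12 (SE 0.23). With 1 embryo left out they ran from 0.087 to 0.29 and from 0.026 to 0.28, both highest without 2_2. In wild type they were -0.37 (SE 0.31) and -0.21 (SE 0.18), with left higher in 4 of 5 embryos for both genes. With 1 wild type left out they ran from -0.61 to -0.012 and from -0.37 to -0.014, both highest without 10_1. *Wt1* shares 246 of 6444 exon bases with *Wt1os*, *Tcf21* 505 of 2726 with *Gm10824* and *Upk3b* 214 of 3531 with *Gm71213*.

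Whether the asymmetry differed between groups was tested directly. The difference of right over left between inverted and rightward mutants was called for 0 of the 10 members by edgeR, against 0.27% of 28483 genes, while 5 members had an unadjusted p under 0.05 (9.94% of all genes) and DESeq2 called 1, *Osr1* (1.6% of all genes). The estimate was highest for *Osr1*, at 1.04 on the log2 scale (SE 0.25, adjusted p = 0.0868). *Shox2* followed with 0.98 (SE 0.36, adjusted p = 0.331), then *Hcn4* with 0.83 (SE 0.29, adjusted p = 0.293), *Tbx3* with 0.72 (SE 0.34, adjusted p = 0.481) and *Tcf21* with 0.57 (SE 0.19, adjusted p = 0.271). All 5 estimates were positive, that is, toward a higher right side in inverted mutants, and none passed the threshold. Exact permutation of the group labels over the 16 mutant embryos, 1 gene at a time for 10 genes, gave p = 0.000916 for *Osr1*, p = 0.00206 for *Shox2*, p = 0.0133 for *Hcn4*, p = 0.0165 for *Tcf21* and p = 0.0467 for *Tbx3* (two-sided, not corrected for the number of genes). By the same exact test 16.1% of the 15245 genes with a mean of 1 CPM or more had p under 0.05. The other 5 genes gave p = 0.112 for *Tbx18*, 0.233 for *Nr2f1*, 0.423 for *Nr2f2*, 0.681 for *Wt1* and 0.971 for *Upk3b*, also by exact permutation. Without 2_2 the permutation p was 0.00133 for *Osr1*, 0.00266 for *Shox2*, 0.00932 for *Hcn4*, 0.0246 for *Tcf21* and 0.0519 for *Tbx3*. With any 1 mutant embryo left out, *Osr1*, *Shox2* and *Hcn4* stayed under 0.05, while *Tcf21* reached p = 0.0513 without 2_7 and *Tbx3* up to p = 0.149 without 18_2, again by exact permutation. Between rightward mutants and wild type, edgeR called 0 of the 10 members and 0% of 28483 genes, 0 members had an unadjusted p under 0.05 (2.99% of all genes), and DESeq2 called 0 members and 0% of all genes. The *Shox2* difference there was 0.49 (SE 0.37) with all embryos and -0.00048 without the wild type 10_1.

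**Figure D4:**
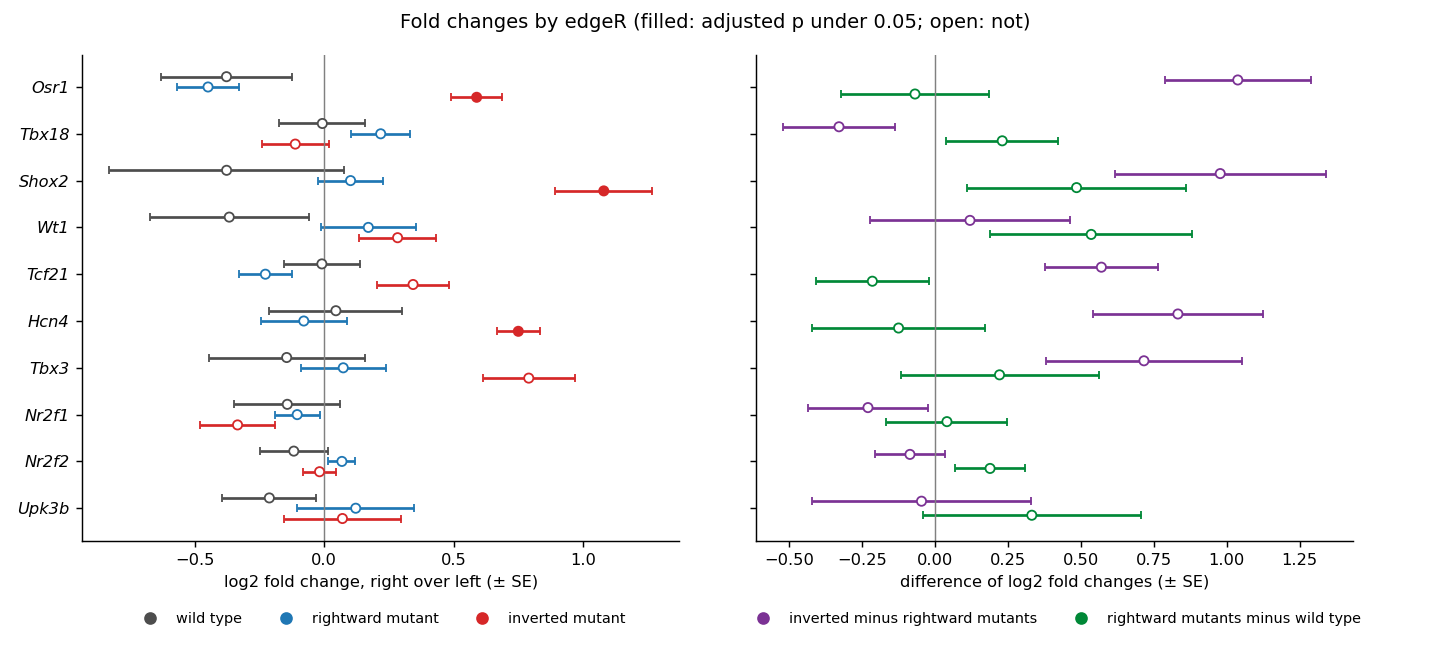
Left panel, log2 fold change of right over left with its SE in each group by edgeR; right panel, differences of these fold changes between groups. Filled points have an adjusted p under 0.05, which holds for *Osr1* (0.59), *Shox2* (1.08) and *Hcn4* (0.75) in inverted mutants and for no point on the right.

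The level on a given side was compared between groups, with sex as a covariate, to ask on which side the groups differed. No member was called in any of these comparisons by edgeR or by DESeq2, which called 0.398% of all genes on the left and 0.0726% on the right for inverted against rightward mutants, and 0.0766% and 0.0306% for rightward mutants against wild type. On the left, inverted against rightward mutants had 0.0115% of 26124 genes called and 4 members at an unadjusted p under 0.05 (7.91% of all genes). *Tbx3* was at -0.64 (SE 0.20, adjusted p = 0.428), *Tcf21* at -0.53 (SE 0.19, adjusted p = 0.481), *Osr1* at -0.42 (SE 0.18, adjusted p = 0.581) and *Nr2f1* at 0.33 (SE 0.13, adjusted p = 0.543). On the right the share of genes called was 0.00765% of 26160, and *Osr1* was the 1 member with an unadjusted p under 0.05 (4.36% of all genes), at 0.56 (SE 0.23, adjusted p = 0.999). For *Osr1*, then, the left mean was 42.6 ± 5.09 CPM in inverted mutants (SD, n = 5) and 58.2 ± 13.6 CPM in rightward mutants (n = 11), and the right mean was 64.1 ± 8.31 and 45.6 ± 21.5 CPM. For *Tbx3* the left mean was 79.5 ± 7.24 and 124 ± 36.9 CPM, while the right mean was 143 ± 48.4 and 129 ± 31.7 CPM. Between rightward mutants and wild type the shares called were 0.023% on the left and 0.0115% on the right. There 1 member, *Tcf21*, had an unadjusted p under 0.05 on the left, as did 5% of all genes (log2 fold change 0.45, SE 0.19, adjusted p = 0.977), and 0 members did on the right, against 3.37%.

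Other genes of the same territories were counted from lists. Like the lists of other tissues below, these were chosen with earlier results of these data known. Of 14 genes listed for the sinus venosus and sinoatrial node, 7 were higher on the right of inverted mutants and 0 lower (median log2 fold change 0.51), where 1.47% of all genes were higher and 1.81% were called in either direction. Those with the largest changes were *Popdc2*, a membrane protein of pacemaker and muscle cells (0.94, SE 0.11), *Bmp4*, a secreted growth factor (0.82, SE 0.13), *Tbx5*, a transcription factor needed for the venous pole (0.73, SE 0.083), and *Sfrp5*, a secreted WNT antagonist of sinus venosus progenitors (0.69, SE 0.11). Among the genes listed for the posterior second heart field, *Tbx20*, a transcription factor of cardiac progenitors (0.94, SE 0.12), *Tbx5* and *Wnt2*, a secreted signal of the cardiopulmonary progenitors (0.58, SE 0.086), were higher on the right of inverted mutants. Of 12 genes listed for the proepicardium and early epicardium, 1 was called higher in inverted mutants, *Gata5* (0.58, SE 0.10), while the median log2 fold change was 0.32. Of 9 listed for the septum transversum and body wall, 3 were called higher, *Mab21l2* (0.94, SE 0.17), *Bmp4* and *Alcam* (0.74, SE 0.14), with a median of 0.60. In inverted mutants 8, 7 and 5 genes of the sinus venosus, proepicardium and septum transversum lists had an unadjusted p under 0.05 (edgeR). Over all genes the share was 14%. In wild type no gene of these 4 lists was called by edgeR, and 0, 4, 1 and 3 of the genes listed for the sinus venosus, posterior second heart field, proepicardium and septum transversum had an unadjusted p under 0.05, against 2.75% of all genes. The lists share genes, among them *Tbx5* and *Bmp4*.

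Genes of other tissues in the dissected pieces also differed between the sides. In inverted mutants 10 of 12 heart tube muscle genes were called higher on the right, with a median log2 fold change of 1.09, and the summed level was higher on the right in 5 of 5 embryos (left 1298 to 2552 CPM, right 2432 to 5176 CPM). Of all 25608 genes tested there, 377 (1.47%) were called higher on the right and 87 lower. The 4 with the largest changes were *Myl2* (2.87), *Acta1* (1.69), *Myl3* (1.45) and *Smyd1* (1.42), genes of the contractile apparatus or its assembly. In the same embryos 3 of 7 neural tube genes were lower on the right, namely *Sox1*, *Pax6* and *Olig2*, and their list summed to 33.9 to 60.8 CPM on the left, against 9.28 to 39.1 CPM on the right. Of 7 paraxial mesoderm genes, 1 was lower on the right, *Myf5*, with sums of 139 to 217 CPM on the left, against 78.5 to 139 CPM on the right. Of 8 foregut endoderm genes, 1 was higher, *Hhex*. In none of the other lists (intermediate mesoderm, neural crest, endothelium, primitive blood, yolk sac visceral endoderm) was a gene called in inverted mutants. No listed gene had a median count of 0. In rightward mutants and wild type the muscle sum went either way, with right higher in 5 of 11 and 3 of 5 embryos and per-embryo log2 ratios from -1.82 to 1.38 and from -1.67 to 1.02.

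The members differed in how closely their ratio tracked the muscle ratio. Over 21 embryos, after the mean of each group was taken away, the log2 ratio of right over left of *Hcn4* correlated with that of the muscle list at Pearson's r = 0.916 (Spearman's rho = 0.857). *Tbx3* had r = 0.884 (rho = 0.832), *Wt1* r = 0.725 (rho = 0.417), *Upk3b* r = 0.643 (rho = 0.412) and *Shox2* r = 0.617 (rho = 0.619). For *Osr1* r was 0.438 (rho = 0.344), for *Tcf21* 0.50 (rho = 0.432), for *Nr2f2* 0.0263, for *Tbx18* -0.179 and for *Nr2f1* -0.302. Without 2_2 the values were 0.873 for *Hcn4*, 0.848 for *Tbx3*, 0.830 for *Shox2*, 0.588 for *Wt1*, 0.404 for *Upk3b*, 0.376 for *Tcf21* and 0.336 for *Osr1*. The values of *Nr2f1*, *Nr2f2* and *Tbx18* rested on 2_2, and without it were -0.637, 0.35 and 0.215. Muscle was not the only list that went with the members. With the list of the posterior second heart field r was 0.899 for *Hcn4* (0.888 without 2_2), 0.744 for *Osr1* and 0.79 for *Tcf21*, and with the foregut endoderm list it was 0.709 for *Shox2*. With the intermediate mesoderm list it was 0.682 for *Tbx3*. The neural tube list went the other way, with r = -0.645 for *Hcn4* (-0.81 without 2_2), -0.666 for *Shox2* and -0.527 for *Tbx3*, and it was negative for every member but *Nr2f1* (0.091). The points share the cut of each embryo and the library sizes, and these values are descriptions with no test. The part of muscle, neural tube and paraxial mesoderm RNA in the right-sided levels of *Osr1*, *Shox2*, *Hcn4* and *Tbx3* was not tested.

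**Figure D5:**
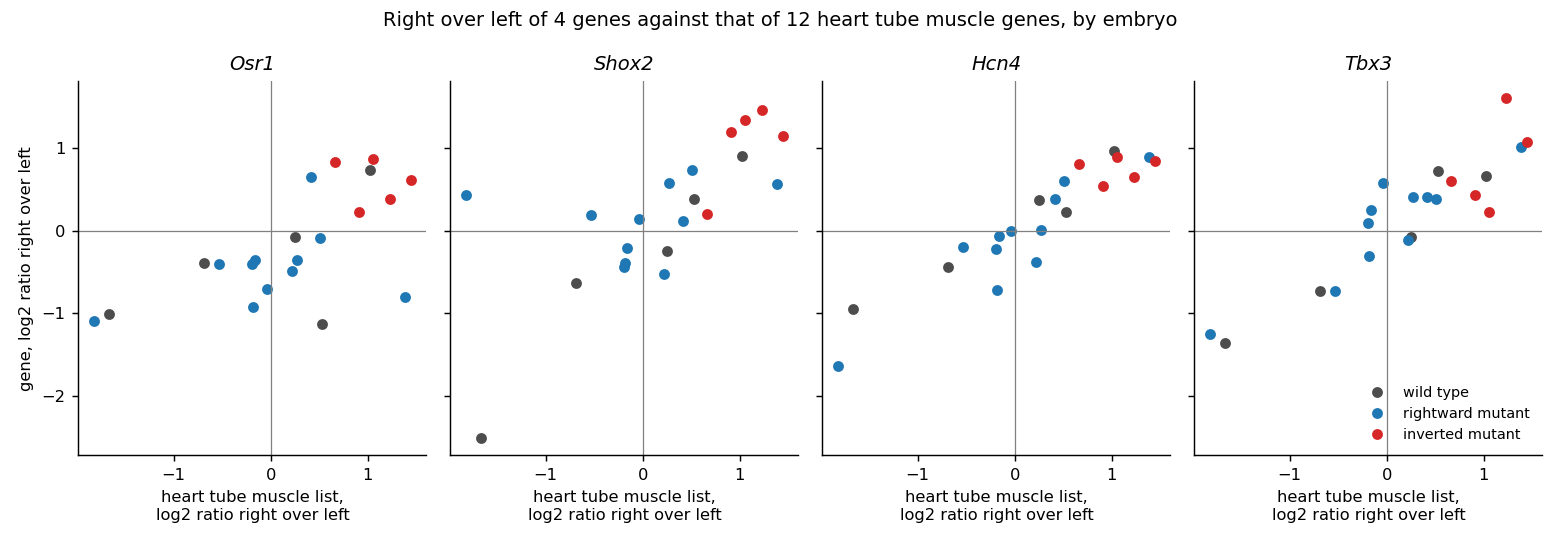
Log2 ratio of right over left of *Osr1*, *Shox2*, *Hcn4* and *Tbx3* (vertical) against that of the summed 12 heart tube muscle genes (horizontal), 1 point per embryo. *Hcn4* (r = 0.916 within groups) and *Tbx3* (r = 0.884) lie close to a line, and *Osr1* (r = 0.438) is scattered.

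For each member the 3 genes with the most similar level over the 42 libraries were taken among 15245 genes with a mean of 1 CPM or more, after the mean of each group and side was taken away. *Hcn4* was closest to *Tbx5* (r = 0.977), *Wnt2* (r = 0.976) and *Csrp3* (r = 0.974), *Shox2* to *Vsnl1* (0.946), *Corin* (0.938) and *Enpp1* (0.933), and *Upk3b* to *Bnc1* (0.901), *Ccn4* (0.872) and *Spon2* (0.858). *Wt1* was closest to *Smim14* (0.909), *Smim1* (0.887) and *Rhoc* (0.873), and *Tbx3* to *Arhgap6* (0.861), *Akap5* (0.854) and *Hand2os1* (0.834). *Osr1* had lower values, with *1700017B05Rik* (0.831), *Kcnh2* (0.824) and *Foxf1* (0.819), as did *Tcf21* with *Gpc3* (0.764), *Mfge8* (0.752) and *Npnt* (0.736) and *Tbx18* with *Vtn* (0.744), *Rasl11b* (0.738) and *Nppa* (0.731). *Nr2f2* (*Nav2*, 0.688) and *Nr2f1* (*A830082K12Rik*, 0.626) had the weakest neighbours, and the last of these overlaps the exons of *Nr2f1*. Without 2_2 the first neighbour was still the first for *Upk3b* (*Bnc1*, 0.767), *Tbx3* (*Arhgap6*, 0.843), *Nr2f1* (0.662) and *Nr2f2* (0.733), and for *Hcn4* the gene *Tbx5* was second (0.921). Without 2_2 the first neighbour fell to place 3 for *Shox2*, 5 for *Tcf21*, 6 for *Osr1*, 9 for *Wt1* and 11 for *Tbx18*, and among the named genes *Rhoc* fell to place 51, *Spon2* to 38 and *Smim1* to 35.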

How the data were processed

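Heart fields of 21 mouse embryos were dissected into a left and a right library each, 42 in all, and poly-A RNA was sequenced in paired reads. Per the methods of the study and the submitters' processing notes, reads were trimmed, duplicates were removed, and reads were aligned to GRCm39 with STAR and counted with featureCounts (Subread 2.0.6). The authors deposited raw counts per Ensembl gene. The strand setting and the handling of reads on several genes are not given in the sources used here. Of 56953 identifiers, 56310 were matched to GENCODE, and 12119 genes had a count of 0 in all libraries. Groups, sides and sexes came from the labels. The labels do not give the study's split of rightward mutants by laterality, so that the group pools both classes.

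Counts were tested with edgeR 4.0.16 in R 4.3.3 (quasi-likelihood, TMM scaling), after filterByExpr with the limits of the study, at least 5 counts (min.count) and 10 in total (min.total.count), with min.prop at 0.2 and large.n at 50. Right over left was fitted within each group with the embryo as a block. Both libraries of an embryo come from the same animal, and their deviations from the group means correlated at a median r = 0.341 over 15245 genes, above 0.1 in 18 of 21 embryos. Differences between groups were interactions in a fit of all 42 libraries, and levels per side carried sex as a covariate. Called means an adjusted p (Benjamini-Hochberg over all genes tested) under 0.05. Log2 ratios per embryo used a prior count of 2 and exact sign-flip and permutation tests in Python 3.11.15 with scipy 1.17.1. CPM were computed from the deposited counts and the effective library size. The tests were tried on simulated data first.

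Alternatives were DESeq2 1.42.0, other scaling, other filters on low counts, males alone, no sex covariate, no embryo block, a fit of all libraries, a prior count of 0.5 and each embryo left out in turn. A fit without 2_2 and 10_1 was added after seeing the data. The 10 members and the 13 gene lists were chosen with earlier results of these data known. Named beyond the members are up to 4 called genes per list, by size of the log2 fold change, the 3 nearest neighbours of each member, *Ccdc40*, and *Tbx5*, *Gata4*, *Isl1*, *Nkx2-5*, *Wnt2*, *Foxf1* and *Aldh1a2* in the description of embryos, which were chosen after their values were seen. Some results are not reported here, so that no count is given for the list of the posterior second heart field in the mutants. Promoter windows came from GRCm39 with GENCODE vM39 starts.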

Additional observations from a re-analysis of the deposited data

Results flagged for a closer look

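In groups of 5, a single embryo lay far from the others in 4 of the 60 sets of values examined, where chance gives about 1 in 20. The inverted mutant 2_7 had the lowest *Shox2* log2 ratio of right over left of its group, 0.21, while right was still higher. The wild type 8_1 had the highest *Tcf21* level on the left, 21.9 CPM. The wild type 22_4 had a *Tcf21* log2 ratio of 0.65, and the other 4 wild types had left higher. The inverted mutant 10_3 had the highest *Nr2f2* level on the right, 162.4 CPM.

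The mean log2 ratio of right over left differed between inverted and rightward mutants for 5 of the 10 members tested 1 at a time, by exact permutation over embryos and with no correction for 10 genes. The same test gave p under 0.05 for 16.1% of the 15245 genes with a mean of 1 CPM or more. The difference was 1.04 for *Osr1*, 0.96 for *Shox2*, 0.87 for *Hcn4*, 0.72 for *Tbx3* and 0.57 for *Tcf21*. With 1 embryo left out, *Tbx3* no longer passed in 9 cases (p up to 0.149, without 18_2) and *Tcf21* in 1 (p = 0.0513, without 2_7), by exact permutation. In the edgeR interaction test adjusted over all genes none of the 5 passed the threshold.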

How the results depend on the processing

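The calls of *Osr1*, *Shox2* and *Hcn4* in inverted mutants were not kept under every alternative. Members called there numbered 3, against 0 in a fit of all libraries, 0 with males alone and 1 to 2 with 1 embryo left out, and 4 with DESeq2, with no filter on low counts and with no embryo block, each time with *Tbx3* added (adjusted p = 0.0181, 0.00244 and 0.0388). Over all genes the calls there numbered 464, and 133, 51, 134 to 461, 1761, 942 and 305 under these alternatives in the same order. For the difference between inverted and rightward mutants, members called numbered 0, against 1 with DESeq2, 1 with no filter on low counts and 0 to 1 with 1 embryo left out (*Osr1* without 1_6, adjusted p = 0.0247, edgeR). Over all genes the calls for this difference numbered 77, against 455, 131 and 18 to 158. Over 1890 fold changes of members under the alternatives, 1867 kept their side of the threshold, of which 115 were uncalled values within 1 SE of 0 that changed sign, 14 lost a call, 6 gained one and 3 reversed. The reversed values were the *Shox2* difference between rightward mutants and wild type, -0.00048 without 10_1 and -0.019 without 2_2 and 10_1, and *Upk3b* on the left in rightward mutants against wild type, 0.012 without 2_2 and 10_1. With other single embryos left out the *Shox2* difference reached 0.82 (without 22_4). Of 450 means and differences of the ratio per embryo, 437 kept their side of 0.05 in the exact tests, 10 lost it (9 for *Tbx3* and 1 for *Tcf21* between inverted and rightward mutants) and 3 gained it. The cause was not tested.

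Without the embryo block (no pairing of sides), genes called were 1 in rightward mutants (6 with it), 305 in inverted mutants (464) and 17 for the difference between inverted and rightward mutants (77), and *Tbx3* joined the 3 members called in inverted mutants. The block changed no other count of members called. The other counts of genes called, over all genes, were as follows. DESeq2 gave 21 in wild type (0 with edgeR), 31 in rightward mutants, 1761 in inverted mutants and 455 for the difference between inverted and rightward mutants. It gave 104 and 19 for inverted against rightward mutants on the left and right (3 and 2 with edgeR), and 20 and 8 for rightward mutants against wild type (6 and 3). With no filter on low counts there were 2 in wild type, 942 in inverted mutants, 131 for the difference, and 11 on the left and 8 on the right for rightward mutants against wild type. With at least 10 counts in every library there were 3 on the left for rightward mutants against wild type and 4 on the right for inverted against rightward mutants. Males alone gave 1 in rightward mutants, 51 in inverted mutants, 7 for the difference, 1 on the left for inverted against rightward mutants, and 0 for the other 3 level comparisons. A fit of all libraries gave 1 in wild type and 133 in inverted mutants, and leaving out the sex covariate gave 0 on the right for inverted against rightward mutants. Without 2_2 and 10_1, chosen after seeing the data, there were 184 for the difference, and on the right 4 for inverted against rightward mutants and 8 for rightward mutants against wild type. With 1 embryo left out the counts ran from 2 to 8 in rightward mutants, 134 to 461 in inverted mutants and 18 to 158 for the difference. For levels they ran from 2 to 8 (left) and 0 to 4 (right) for inverted against rightward mutants, and from 1 to 11 (left) and 0 to 12 (right) for rightward mutants against wild type. With 5 inverted mutants a sign-flip test cannot go below 0.063, and counts as low as 29 for *Shox2* in 2_2 limit its ratio there.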

Other observations

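The right over left ratios of some members went together over the 21 embryos after the group means were taken away, given here as descriptions with no test. *Wt1* and *Upk3b* had r = 0.811 (0.694 without 2_2). *Hcn4* and *Tbx3* had r = 0.801, *Wt1* and *Hcn4* r = 0.749, *Wt1* and *Tbx3* r = 0.723, *Osr1* and *Tcf21* r = 0.654, *Tcf21* and *Hcn4* r = 0.638 and *Hcn4* and *Upk3b* r = 0.635 (0.354 without 2_2), so that high values also joined markers of different territories. *Shox2* and *Hcn4* had r = 0.551 (0.778 without 2_2). *Shox2* and *Nr2f1* had r = -0.642. Each pair shares the cut of the embryo and the size of its libraries.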
